A study of Mus musculus with 10 samples.

Results

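The immunoglobulin kappa light chain gene (Igk) is built in small pre-B cells of the bone marrow, where the recombinase joins 1 V segment to 1 J segment and the ends of both are trimmed or extended before ligation. The joint encodes the third complementarity determining region (CDR3), a loop that contacts antigen. Most mouse kappa chains carry a CDR3 of a single standard length with a proline near the end of its V part. Described here are the short in-frame CDR3 clonotypes: combinations of a V segment, a J segment and a CDR3 nucleotide sequence whose CDR3 has a length divisible by 3, at most 24 nt (8 codons), and no stop codon when read from its first base. There were 2820 of them among 12157 in-frame clonotypes and 23998 clonotypes in all, and they held 17552 of 110997 in-frame counts.

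The samples were 5 WT and 5 rsCBE mouse samples on the C57Bl6 background, aged 6 to 12 weeks, from small pre-B cells of bone marrow purified by flow cytometry. The name rsCBE is used as the labels give it, without further explanation there. The design text puts a delta in front of it and lists another genotype, which is not analysed here. Amplicon libraries of kappa transcripts were read as 151-bp pairs. Nothing in the labels says that replicates were separate mice, so p-values measure only the spread between these samples, which may be technical. Depth lay between 3109 and 24083 counts per sample. Short in-frame counts lay between 377, in WT replicate 4, the shallowest sample, and 2732. Replicates 1 and 2 of each genotype were given as 1 library each and replicates 3 to 5 as 2 parts each. These are called batch 1 and batch 2 below from the structure of the table, since the labels name no batch.

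The germline V ends are shown first, because their length and last codon differ among the segments that led the short clonotypes. Listed are the bases between the conserved cysteine codon and the V end of those 3 V segments, with Igkv8-16, a frequent V segment of longer joints, for contrast. Capitals mark a complete in-frame proline codon (CC followed by any base), and all 4 genes lie on the minus strand of mouse chromosome 6.
Igkv8-27: catcaatacctctcctcg
Igkv8-21: aagcaatcttataatcttcc
Igkv19-93: ctacagtatgataatcttctacc
Igkv8-16: cagcagcatttacacattCCTcc

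These stretches lie at chr6:70171809-70171826, chr6:70314895-70314914, chr6:68736297-68736319 and chr6:70386672-70386694 of GRCm38, in the coding sequence of genes annotated as IG_V_gene. They hold 18, 20, 23 and 23 bases. Of the 111 V segments whose germline end could be read, 72 had 23 bases, 9 had 18 to 22 and 30 had 24 to 29. The J segments start with the following CDR3 bases, in capitals as in the clonotypes below.
Igkj1: GTGGACG
Igkj2: TGTACACG
Igkj3: AATCACA
Igkj4: ATTCACG
Igkj5: GCTCACG

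The 8 short clonotypes with the highest mean share of short counts over the 10 samples follow, since they show how a V end and a J start meet. Lower case marks bases that match germline V and capitals those that match germline J only.
Igkv8-27 with Igkj5: catcaatacctctcctcgCTCACG
Igkv8-27 with Igkj1: catcaatacctctcctcgTGGACG
Igkv8-27 with Igkj2: catcaatacctctcctcgTACACG
Igkv8-21 with Igkj5: aagcaatcttataatctGCTCACG
Igkv19-93 with Igkj1, first form: ctacagtatgataatcttcGGACG
Igkv19-93 with Igkj1, second form: ctacagtatgataatctGTGGACG
Igkv19-93 with Igkj2: ctacagtatgataatctGTACACG
Igkv19-93 with Igkj5: ctacagtatgataatcttctCACG

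All 8 had 24 nt and 0 added bases. In the joints of Igkv8-27 with Igkj1 and Igkj5, the sequence matched the whole V end and the whole J start with 1 base matched by both. That base can come from either end, so 1 of the germline bases was lost and its side could not be told. The Igkv8-21 joint lacked 3 V bases, and the Igkv19-93 joints between 3 and 6. For contrast, the most frequent longer clonotypes of Igkv19-93 and Igkv8-16 had 27 nt, had lost 3 V bases each and carried 0 added bases.
Igkv19-93 with Igkj2, 27 nt: ctacagtatgataatcttctGTACACG
Igkv8-16 with Igkj5, 27 nt: cagcagcatttacacattccGCTCACG

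Short clonotypes held about 1 in-frame count in 6 in both genotypes. Their share of in-frame counts in the WT samples was 13.5, 16.3, 16.0, 18.5 and 14.3% for replicates 1 to 5, and in the rsCBE samples 15.8, 17.9, 17.1, 14.4 and 16.1%. The 2 ranges overlapped almost wholly, and the highest value belonged to WT replicate 4, where the 95% Wilson interval ran from 16.9 to 20.3%. The means were 15.7% ± 1.95 (SD, n = 5) and 16.3% ± 1.32 (SD, n = 5), a difference of 0.557 percentage points (two-sided exact permutation test, p = 0.603). The difference was 1.97 points in batch 1 and -0.384 in batch 2. With each clonotype counted once, the short share was 20.3% ± 3.03 for WT and 23.3% ± 2.23 for rsCBE, 2.96 points apart with overlapping ranges (exact permutation test, p = 0.135). Intervals and limits for single samples cover counting error only, because a count is not known to be 1 molecule. In bulk RNA, fewer cells with a clonotype and less RNA per cell cannot be told apart.

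Length fell off steeply below the limit. The class just inside it, 24 nt, held 15308 counts in 2044 clonotypes, and the class just outside it, 27 nt, held 85427 counts in 7345 clonotypes. The 21-nt class held 1870 counts and the 18-nt class 286, while all lengths of 15 nt and under together had 88 counts. Shares by class overlapped between the genotypes. Of WT in-frame counts, 13.5% ± 1.32 had 24 nt, 1.99% ± 0.918 had 21 nt and 0.269% ± 0.139 had 18 nt or fewer (SD, n = 5). For rsCBE the same classes held 14.1% ± 1.12, 1.80% ± 0.32 and 0.392% ± 0.108 (SD, n = 5). No class passed the exact permutation test (adjusted p = 0.655, 0.778 and 0.405). The 21-nt class differed by -0.187 points (rsCBE minus WT) in counts. With each clonotype counted once it differed by 1.51 points and was called. Counts of at most 24 nt whose length is divisible by 3 carried a stop codon in 3.85% of cases, against 0.865% of longer ones, and were left out by the definition.

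**Figure D1:**
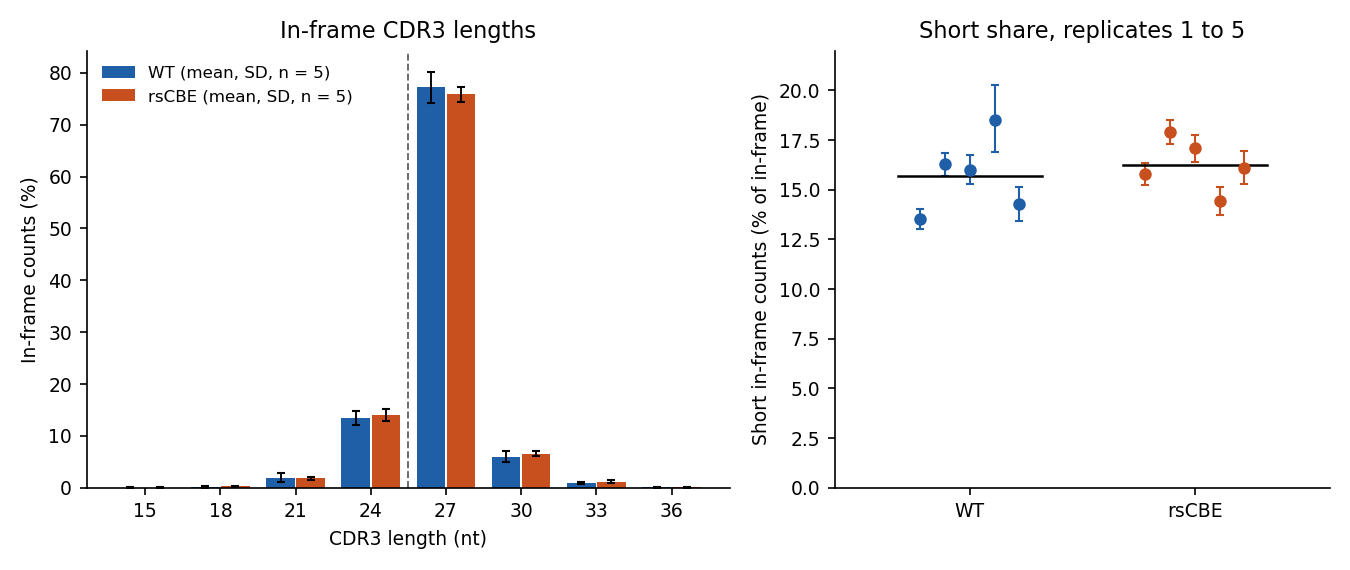
Left, mean share of in-frame counts at each CDR3 length from 15 to 36 nt (bars start at 0, error bars are SD over 5 samples, the dashed line separates short from longer). Right, short share of in-frame counts for replicates 1 to 5 of each genotype with 95% Wilson intervals and the mean as a line; the WT points run from 13.5 to 18.5% and the rsCBE points from 14.4 to 17.9%.

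A few V segments made up most of the short counts. Igkv8-27 held 3912 short counts, Igkv19-93 held 3049 and Igkv8-21 held 2144, together 51.9% of all short counts and between 43.5 and 56.8% in single samples. The same 3 segments held on average 2.48% of longer in-frame counts. In all, 106 V segments appeared among short counts.

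Igkv8-27 has the shortest germline V end of the locus as annotated. Its share of short counts was 26.5, 24.4, 18.5, 17 and 22.5% in WT replicates 1 to 5 and 23.5, 21.9, 21.3, 19.5 and 19.0% in rsCBE. The genotypes overlapped, and the samples of batch 1 were higher than most of batch 2 (means 24.1 and 19.6%). Of its own in-frame counts, between 96.9 and 100% were short in every sample, and only 46 of its 3958 in-frame counts were longer than 24 nt.

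Igkv19-93 has a germline end of standard length but no complete proline codon. It held 22.4, 21.5, 15.5, 14.3 and 13.5% of short counts in WT and 19.5, 17.9, 11.1, 14.1 and 13.3% in rsCBE. Both genotypes were again higher in batch 1 (20.3%) than in batch 2 (13.6%). Short counts made up a median of 59.9% of its in-frame counts, from 56.1 to 61.7% in 9 samples and 79.4% in WT replicate 4.

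Igkv8-21 ends in CC, an unfinished proline codon. Its share of short counts was 7.94, 10.3, 12.6, 12.2 and 14.2% in WT and 11.5, 10.4, 21.7, 12.3 and 12.7% in rsCBE. The value of rsCBE replicate 3 stood apart, and 172 of that sample's short counts were a single Igkv8-21 clonotype with Igkj1. Of its in-frame counts, 89.8 to 100% were short in 9 samples and 38.4% in rsCBE replicate 4, where 1 longer clonotype, of 27 nt with Igkj2, held 239 counts.

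The next 5 segments by mean share were Igkv8-16 (2.82%), Igkv4-80 (2.41%), Igkv1-135 (2.27%), Igkv4-86 (2.13%) and Igkv4-69 (1.96%). Batch 2 had the higher mean share for Igkv8-16 (0.786% in batch 1 and 4.17% in batch 2) and for Igkv1-135 (0.705 and 3.31%). Short counts were a minor part of the in-frame counts of Igkv8-16 (median 6.6%) and Igkv1-135 (10.3%), 2 segments that are frequent among longer joints. They were 65.0% for Igkv4-80, 38.5% for Igkv4-69 and 26.1% for Igkv4-86, whose germline ends have 21, 21 and 22 bases.

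**Figure D2:**
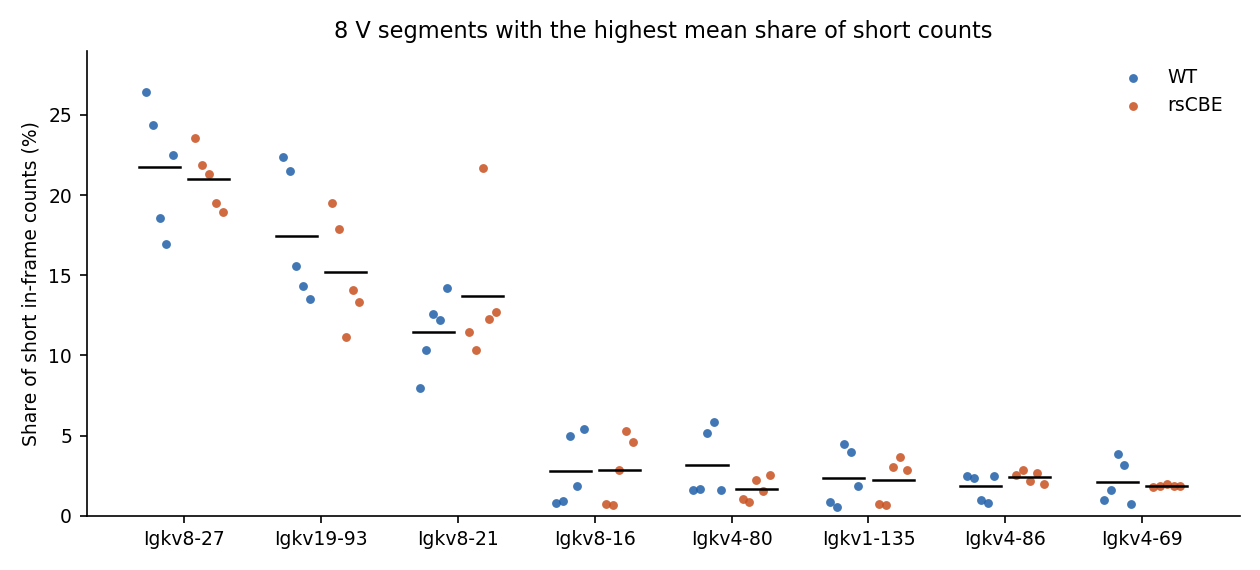
Share of short in-frame counts (y axis, %) held by each of the 8 leading V segments; each point is 1 sample, in replicate order from left to right, and the line is the mean of 5. Igkv8-27, Igkv19-93 and Igkv8-21 lie between 7.94 and 26.5% in every sample, and the other 5 below 6%.

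V use of short and longer counts of the same sample is given as a description, because germline V bases are part of the CDR3 length that split the classes. With edgeR's quasi-likelihood test over the 51 of 113 V segments that passed its filter on low counts, 39 had an adjusted p under 0.05 (76.5%), 7 of them with the higher share in short counts (13.7% of those tested) and 32 with the lower (62.7%). The calls only set which segments are listed below, and nothing else is read from them. Without the filter, 12 of 113 were on the higher side and 66 on the lower, with TMM factors 13 and 21, and with DESeq2 11 and 29.

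The 5 segments with the largest log2 difference towards short counts among those called were Igkv8-27, Igkv8-21, Igkv4-80, Igkv19-93 and Igkv4-69. Igkv8-27 held 21.4% ± 2.94 of short and 0.0432% ± 0.0408 of longer counts (SD, n = 10), with 0 to 12 longer counts per sample. Igkv19-93 held 16.3% ± 3.79 and 1.98% ± 0.640, and Igkv8-21 12.6% ± 3.62 and 0.454% ± 1.01 (SD, n = 10). Igkv4-80 held 2.41% ± 1.71 and 0.206% ± 0.174, and Igkv4-69 1.96% ± 0.924 and 0.540% ± 0.217 (SD, n = 10). Each of the 5 had the higher share in short counts in 10 of 10 samples. Igkv8-24 had the higher share in 6 of 10, and the sign of its log2 difference (0.06 ± 0.29 SE) changed in WT alone and with single samples left out.

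The 5 at the other end were Igkv4-92, Igkv4-53, Igkv16-104, Igkv14-126 and Igkv4-57. They had 11, 29, 48, 39 and 26 short counts in all, so that they passed the filter through their longer counts. Igkv4-92 held on average 1.08% of longer counts and 0.0440% of short counts, with 0 short counts in 7 of the 10 samples. Igkv16-104, the most frequent of the 5 among longer counts, held 2.33% of longer and 0.245% of short counts. Igkv4-92 and Igkv16-104 have germline ends of 24 bases, Igkv4-53 and Igkv4-57 of 25, and Igkv14-126 of 23. All 5 contain a complete proline codon in frame, as do 105 of the 111 V segments whose germline end could be read (94.6%).

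Germline length and short share went together across V segments. Germline V bases are part of the CDR3 length by which short clonotypes were chosen, so their number and the short share are not independent. Over 93 V segments with at least 100 in-frame counts, the percentage of in-frame counts that were short correlated with the number of germline V bases with Pearson's r = -0.70 and Spearman's rho = -0.72. The points share libraries and differ in depth, so this is a description. The 9 segments with 18 to 22 bases had 71.8% of their in-frame counts short, from 53.6 to 82.3% in single samples. Without Igkv8-27 and Igkv8-21 the other 7 had 36%, from 29.7 to 54.5%. Segments with 23 bases had 11.3% short, and 8.17% without Igkv19-93, and the 30 segments with 24 to 29 bases had 3.16%, from 2.15 to 15.6%. The first group held 42.5% of all short counts although it held 10400 of 110997 in-frame counts.

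V segments were also grouped by the proline codon, a grouping that overlaps with germline length. Among the 110 V segments with in-frame counts and a readable germline end, 6 lacked a complete in-frame proline codon: Igkv8-27, Igkv19-93, Igkv8-21, Igkv20-101-2, Igkv6-29 and Igkv13-82. Together they had 78.6% of their in-frame counts short and held 52.5% of all short counts. The other 104 had 8.33% of theirs short. The last 2 of the 6 had only 10 and 4 in-frame counts. Of the 6, 4 have 18 to 22 germline bases, so that beyond length the contrast rests on Igkv19-93. This grouping was made after the values were seen. The length limit leaves little room for the germline proline codon beside the J bases, so the next values are fixed in large part by the definition. In the joined sequences, 16.8% of short counts carried a proline codon, from 14.8 to 22.3% in single samples, against 96.3% of longer counts, from 94.4 to 97.1%. Without Igkv8-27, Igkv19-93 and Igkv8-21, 29.9% of short counts and 98.5% of longer counts carried one.

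**Figure D3:**
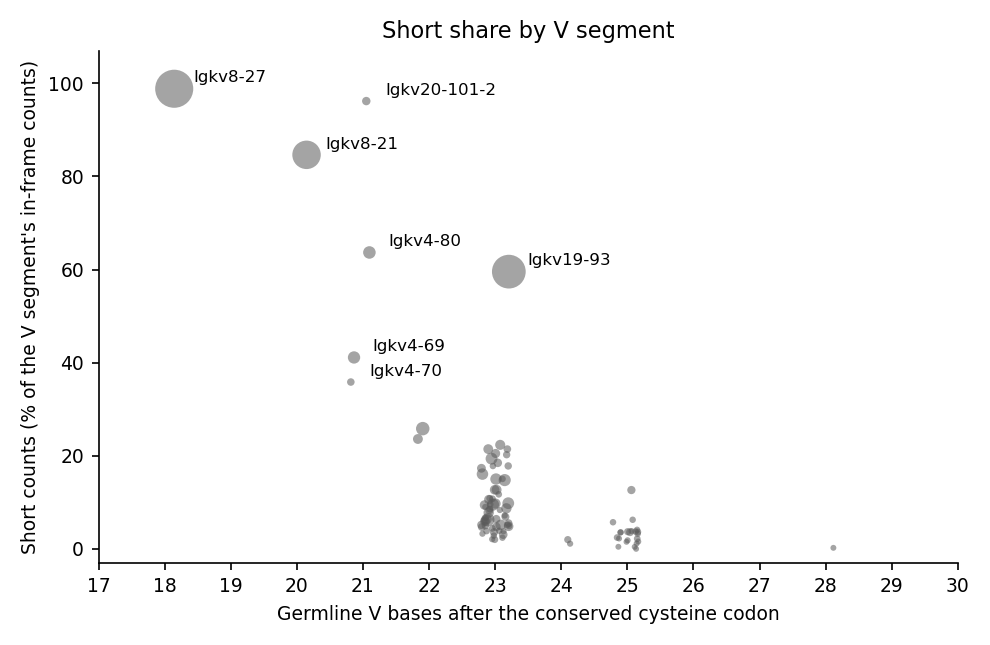
Each point is 1 of 93 V segments with at least 100 in-frame counts; the x axis gives germline V bases after the conserved cysteine codon (points spread sideways for legibility), the y axis the percentage of the segment's in-frame counts that were short, and point area grows with short counts. Segments with 22 bases or fewer and Igkv19-93 stand above the remaining ones.

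The number of germline bases missing from a joint differed among the V segments. A joint was resolved when its first 12 bases (all, if fewer) matched germline V and its last 3 germline J. Any bases between the matched V and J parts were counted as added. Of short counts 88.0% were resolved, and of longer counts 94.6%. A base matched by both ends was counted as kept on each, so the V and J values are the lowest possible loss of each end, and the total loss counts such a base once. Resolved short counts of Igkv8-27 lacked 0.318 V bases and 0.733 J bases on average, 1.79 in total, and 85.4% of them matched the whole V end. Those of Igkv8-21 lacked 2.42 V and 0.812 J bases, 3.51 in total. Those of Igkv19-93 lacked 5.03 V and 0.847 J bases, 6.37 in total, and its longer counts 2.30 V and 0.730 J bases, 3.33 in total.

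In the other V segments, bases were missing on both sides. More bases are lost in short than in longer joints by construction, since the classes were split by CDR3 length, and the values describe how the loss was divided. Resolved short counts outside the 3 leading segments lacked 4.54 V and 1.55 J bases on average, 6.57 in total. Resolved longer counts lacked 2.38 V and 0.854 J bases, 3.49 in total. In single samples the V loss of these short counts lay between 4.37 and 5.49 bases (2.31 to 2.44 in longer counts), and the J loss between 1.44 and 1.84 bases (0.805 to 0.903). The whole J start was matched in 25.5% of these short counts and in 50.6% of longer ones. Of all short counts outside the 3 segments 83.8% were resolved, against 94.6% of longer ones. Of 21-nt counts of all V segments, 67.5% were resolved. Joints that kept fewer than 3 germline J bases are missing from these averages.

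**Figure D4:**
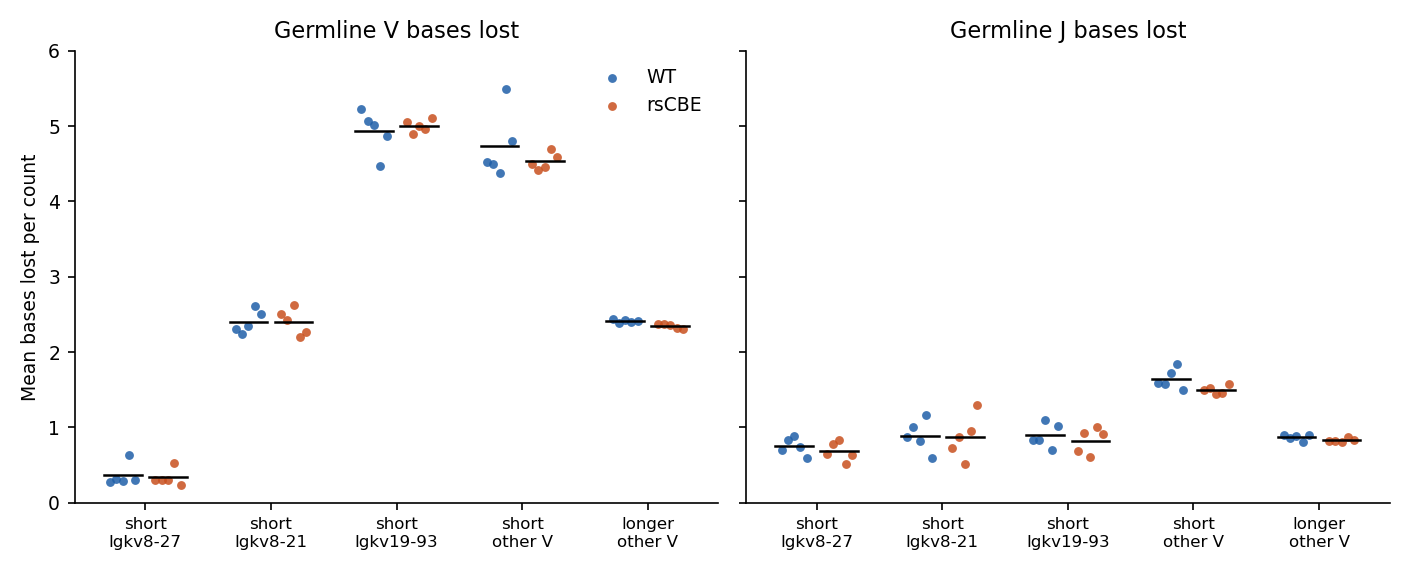
Mean number of germline V bases (left) and J bases (right) lost per resolved count, a base matched by both ends counted as kept on each; each point is 1 sample, lines are means of 5. Short counts of Igkv8-27 lie below 1 lost V base, those of Igkv19-93 and of the other V segments above 4, and longer counts of the other V segments between 2.31 and 2.44.

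Most short joints carried no added bases. Of resolved short counts, 90.7% ± 2.57 (SD, n = 10) had 0 added bases, and of longer counts 91.2% ± 1.13 (SD, n = 10), a difference of -0.417 points. With each clonotype counted once the difference was 19.2 points, and without Igkv8-27 it was 2.62. Added bases lengthen the CDR3, which set the 2 classes, so these values are a description and nothing is read from the test between the classes. Where bases were added to Igkv8-27, 85.0% of the counts had only bases that could come from opening the hairpin at a V or J end (palindromic bases). Among short counts without added bases, 47.0% had at least 1 base shared by the V and J ends, against 17.3% of longer ones. Igkv8-27 led this with 92.2%, and short counts outside the 3 segments had 38.9%.

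By genotype, the share of short counts with 0 added bases was 90.5, 90.9, 89.3, 84.1 and 91.7% in WT and 92.6, 91.6, 92.8, 92.5 and 91.5% in rsCBE. The ranges overlapped through WT replicate 5 alone, and WT replicate 4 was lowest. The means were 89.3% ± 3.05 (SD, n = 5) and 92.2% ± 0.610 (SD, n = 5), 2.87 points apart (exact permutation test, p = 0.0238). Within replicate pairs, matched by number only, the exact p was 0.125, with 0.0625 the smallest that 5 pairs allow. The difference was 1.38 points in batch 1, 3.87 in batch 2 and 1.56 without WT replicate 4. It did not pass without rsCBE replicate 1, 3 or 4 (exact permutation p = 0.0714 for each).

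J use of short counts differed between the genotypes. Igkj5, the J segment farthest from the V segments, made up 24.3, 27.9, 30.8, 28.1 and 34.8% of short counts in WT and 42.8, 45.4, 40.3, 37.2 and 47.0% in rsCBE. No rsCBE sample overlapped the WT range. The means were 29.2% ± 3.91 and 42.5% ± 3.93 (SD, n = 5 per genotype), 13.3 points apart (exact permutation test, adjusted p = 0.0198 over 5 J segments). Igkj1, the J segment nearest to the V segments, made up 36.4% ± 3.02 in WT and 29% ± 3.34 in rsCBE (SD, n = 5 per genotype), a difference of -7.42 points with no overlap (exact permutation test, adjusted p = 0.0198). Igkj2 made up 21.4% ± 1.66 and 18% ± 1.73 (SD, n = 5 per genotype), -3.40 points with overlapping ranges (adjusted p = 0.0397 in the exact permutation test). Igkj4 differed by -2.33 points and did not pass (adjusted p = 0.109).

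The direction was the same in both batches for these 4 segments. Igkj5 differed by 18 points in batch 1 and 10.2 in batch 2, Igkj1 by -12.3 and -4.14, and Igkj2 by -4.36 and -2.76. With each clonotype counted once, Igkj5 differed by 7.76 points and still passed, Igkj2 by -1.26 (exact adjusted p = 0.529) and Igkj4 by -0.207. Without Igkv8-27, Igkj2 differed by -2.35 (exact adjusted p = 0.278). Within replicate pairs the exact adjusted p was 0.0781 for Igkj1, Igkj2, Igkj4 and Igkj5, since 5 pairs allow no unadjusted p under 0.0625. Without WT replicate 1, Igkj5 alone passed. Igkj2 also did not pass when WT replicate 2 or 5, or rsCBE replicate 2, 3, 4 or 5, was left out, with exact adjusted p between 0.0595 and 0.0794.

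By V segment, the Igkj5 share is given as values only. Of Igkv8-27 short counts, 31% ± 4.58 were joined to Igkj5 in WT and 44.9% ± 5.65 in rsCBE. For Igkv19-93 the values were 22.6% ± 7.19 and 34.6% ± 2.82, for Igkv8-21 31.3% ± 5.19 and 39.6% ± 7.79, and for the other V segments together 30.5% ± 5.15 and 45.5% ± 4.89 (SD, n = 5 per genotype). The genotypes did not overlap for Igkv8-27 and the other V segments, and overlapped for Igkv19-93 and Igkv8-21. Among longer in-frame counts, Igkj5 made up 26.8% ± 3.45 for WT and 34.9% ± 0.765 for rsCBE, and Igkj1 31.5% ± 1.96 and 25.6% ± 2.01, both again without overlap.

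J use of short and longer counts of the same sample is likewise a description, and nothing is read from the tests between the 2 classes. The germline CDR3 bases of Igkj2 are 1 more than those of the other J segments and enter the length that split the classes, and the J shares of a class sum to a whole. Igkj1 had the higher share in short counts in 10 of 10 samples, by 4.15 points on average, and Igkj2 the lower share in 10 of 10, by -5.37 points. Igkj5 had the higher share in 9 of 10, by 5.01 points, and Igkj4 the lower in 9 of 10, by -4.04 points. Without Igkv8-27, Igkv19-93 and Igkv8-21 the Igkj1 difference was 1.36 points. The short-minus-longer difference in Igkj5 was 2.40 ± 3.76 points in WT and 7.61 ± 4.28 in rsCBE (SD, n = 5 per genotype), and these did not pass the test between genotypes (exact permutation test, adjusted p = 0.357).

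**Figure D5:**
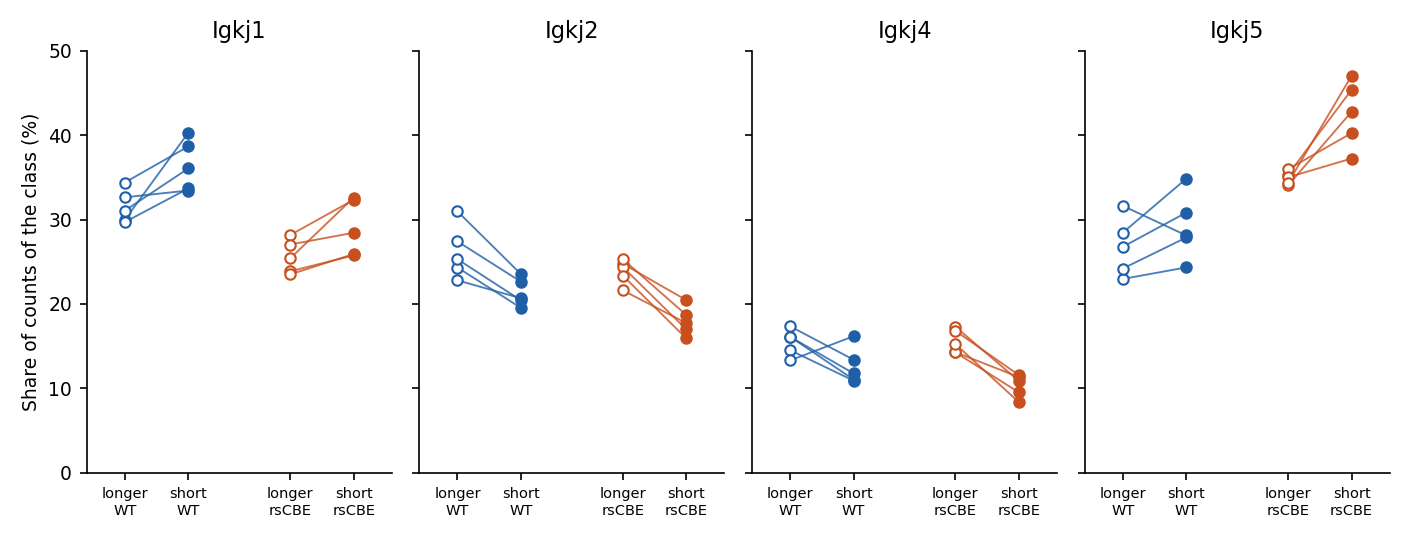
Share of longer (open) and short (filled) in-frame counts held by Igkj1, Igkj2, Igkj4 and Igkj5; lines join the 2 classes of 1 sample. Filled Igkj5 points lie between 24.3 and 34.8% in WT and between 37.2 and 47.0% in rsCBE.

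Igkj3 was rare and its lines lacked J bases. Only 26 short counts, in 19 clonotypes and 9 samples, were called Igkj3, and 0 of these clonotypes ended in the last 3 germline Igkj3 bases, against 95.5% of short Igkj1 counts. Of in-frame Igkj3 counts, 26 were short and 2 longer. The CDR3 of these lines may have been recorded with another end than that of the other J segments, which was not tested. WT replicate 4 had 1.59% of its short counts on Igkj3, and no other sample more than 0.261%. Between genotypes Igkj3 differed by -0.185 points (exact permutation test, adjusted p = 1), and by 0.124 without WT replicate 4 (exact adjusted p = 0.0132). Igkj3 was higher in short counts in 9 of 10 samples, by 0.257 points. Of counts with at most 18 nt, 62.3% ended in the last 3 germline bases of their J segment, against 97.4% of those with 24 nt, and 33.4% could be resolved. The leading 18-nt clonotype, found in 6 samples with Igkj5, is identical to the germline end of Igkv8-27 printed above.

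Within each J segment, the short share of in-frame counts did not pass the test between genotypes. It was 17.7% ± 2.13 in WT and 18% ± 1.24 in rsCBE for Igkj1, 13.3% ± 1.76 and 12.7% ± 1.39 for Igkj2, 13.5% ± 4.71 and 11.4% ± 1.39 for Igkj4, and 16.8% ± 1.62 and 19.2% ± 2.55 for Igkj5 (SD, n = 5 per genotype). The Igkj5 difference was 2.31 points (exact permutation test, adjusted p = 0.571), and without rsCBE replicate 4 it was 3.30 (adjusted p = 0.0317). Standardised to the mean J composition of all samples, the short share differed by 0.376 points between genotypes, and standardised to the mean V composition by 0.370.

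No V segment was called between genotypes within the short counts. With edgeR's quasi-likelihood test, 0 of 33 V segments tested passed (0%), 0 had an unadjusted p under 0.05, and DESeq2 also called 0. The 3 with the smallest p were Igkv17-127 (0.861% of short counts in WT and 1.49% in rsCBE, log2 difference 0.88 ± 0.49 SE), Igkv4-80 (3.17 and 1.64%, -0.92 ± 0.52) and Igkv8-24 (0.934 and 1.86%, 0.89 ± 0.50), each with an adjusted p of 0.967 in edgeR. The ratio of short to longer counts was called for 0 of 51 V segments (0%), with 1 at an unadjusted p under 0.05, and for 0 by DESeq2. That 1 was Igkv14-126, whose log2 ratio differed by 2.39 ± 1.05 (SE), with an adjusted p of 0.976 in edgeR. Igkv3-2 (1.40 ± 0.75) and Igkv17-127 (0.77 ± 0.45) followed.

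Short clonotypes were spread over many rare sequences and a few shared ones. Of the 2820, 2035 (72.2%) were found in 1 sample and held 15% of short counts. Of longer clonotypes, 77.3% were found in 1 sample and held 9.08% of longer counts. Among short clonotypes, the 14 found in all 10 samples held 32.7% of counts. Of these 14, 4 used Igkv8-27, 4 Igkv19-93, 4 Igkv8-21, and 1 each Igkv4-69 and Igkv8-16. Longer clonotypes found in all 10 samples held 43.6% of longer counts. Clonotypes found in both genotypes held 81.6% of short counts and 89.3% of longer counts, with no test of these differences.

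The leading clonotype, Igkv8-27 with Igkj5, held 5.27, 5.69, 4.96, 2.92 and 5.74% of short counts in WT and 8.27, 6.84, 7.86, 6.18 and 8.09% in rsCBE. The ranges did not overlap. Against total counts, however, its log2 difference was 0.55 ± 0.36 (SE) with an adjusted p of 0.840 in edgeR. The same V end with Igkj1 held 4.25% ± 2.18 in WT and 3.22% ± 0.374 in rsCBE, and with Igkj2 3.87% ± 1.48 and 2.39% ± 0.8 (SD, n = 5 per genotype), with overlapping ranges. The Igkv8-21 joint with Igkj5 held 2.47% ± 0.956 and 2.99% ± 0.325. The first form of Igkv19-93 with Igkj1 held 2.94% ± 0.940 and 2.26% ± 1.23, the second form 2.95% ± 1.06 and 2.20% ± 0.919 (SD, n = 5 per genotype).

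The leading Igkj4 clonotype was Igkv19-93 (0.960% of short counts on average, 9 samples) and the leading 21-nt clonotype Igkv8-21 with Igkj4 (0.592%, 8 samples).
Igkv19-93 with Igkj4: ctacagtatgataatctATTCACG
Igkv8-21 with Igkj4, 21 nt: aagcaatcttataatctCACG

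The 21-nt clonotype held 4.51% of short counts in WT replicate 4, where both parts of the sample contained it (9 and 8 counts), and at most 0.522% in any other sample. The leading Igkj3 clonotype, from Igkv8-19, was found in that sample only, with 5 counts.

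In the test of single clonotypes over the whole table, 263 passed the filter on low counts and 0 were called by edgeR (0%), with 14 at an unadjusted p under 0.05, while DESeq2 called 2. Only 22 of the 2820 short clonotypes passed the filter, and these held 41.7% of short counts. Among them 1 had an unadjusted p under 0.05, an Igkv17-127 clonotype with Igkj5. Its share of short counts was 0.174% ± 0.121 for WT and 0.767% ± 0.119 for rsCBE (SD, n = 5 per genotype). Against total counts, its log2 difference was 1.90 ± 0.57 (SE) with an adjusted p of 0.346 in edgeR. DESeq2 called it with an adjusted p of 0.0294. It is printed without marked J bases.
Igkv17-127 with Igkj5: ttgcaaagtgataacatgctcacg

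Distinct short clonotypes were compared at equal depth. Drawn to 377 short counts per sample, the expected number of distinct short clonotypes was 186, 201, 158, 88.0 and 150 in WT and 196, 209, 168, 186 and 176 in rsCBE. WT replicate 4 was far below the rest. The means were 157 ± 43.6 and 187 ± 16.2 (SD, n = 5 per genotype), 30.1 apart (exact permutation test, p = 0.175). The rsCBE sample was higher in all 5 replicate pairs, matched by number only (exact p = 0.0625, the smallest that 5 pairs allow). Batch 1 gave a difference of 8.85 and batch 2 one of 44.3, and when genotypes were permuted inside each batch the exact p was 0.0333. Without WT replicate 4 it was 12.9 at the same depth (exact permutation test, p = 0.357), an alternative chosen after the values were seen. The 10 largest short clonotypes of a sample held 33.1% ± 3.36 of its short counts for WT and 31.5% ± 3.78 for rsCBE (SD, n = 5 per genotype; exact permutation test, p = 0.476).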

How the data were processed

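Per the file headers, the deposited table gives V calls, a J call, the CDR3 and a count for each clonotype and library. Counts are whole numbers and were used as deposited, not normalized by the authors as far as the values show. The submitters' processing notes name the build mm10. The caller, its germline set, its filters and what 1 count stands for (a read pair or a molecule) are not given in the sources used here, and counts of near-identical V segments are uncertain. Duplicate lines were merged (49 of 49079) and the parts of a sample added (16 libraries, 10 samples). The members and lists were chosen with earlier results of these data known.

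Shares per sample were compared with two-sided exact permutation tests (Python 3.11.15, scipy 1.17.1), within-sample differences with exact sign-flip tests, and V and clonotype counts with edgeR 4.0.16 in R 4.3.3. DESeq2 1.42.0, TMM factors, no filter, each sample left out, batches and replicate pairs were alternatives. Adjustment was by Benjamini-Hochberg, threshold 0.05. Fold changes of V segments refer to shares of the class total, and those of clonotypes to shares of all counts of a sample. Each standard error is the log2 fold change divided by the square root of its F statistic. On simulated counts with changes of 4-fold, edgeR recovered 11 of 11, 5 of 5, 10 of 12 and 56 of 56 changed features in the 4 comparisons (V by class, V by genotype, their interaction, clonotypes), with 1, 0, 1 and 5 false calls. The simulated spread was set to 1 fixed value and not taken from these samples. The recovery therefore does not show which changes the genotype tests could have missed.

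Germline ends came from GENCODE M21 transcripts (GRCm38): 112 of 114 V names matched and 111 had a readable end. Matching was exact from the first base, so a changed base within V counts as added. Palindromic bases are complements of an untrimmed end. The standardised shares used 84 V segments with in-frame counts in all samples. Samples were paired by replicate number, although no label pairs them. Deviations of same-numbered samples in V use of short counts correlated at 0.872 and 0.751 for replicates 1 and 2, which form batch 1. For replicates 3, 4 and 5 the correlations were 0.304, 0.184 and 0.133, and only replicate 1 matched its own number best. The values within replicate pairs therefore depend on a matching by number that these correlations do not establish.

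V segments named are the 8 with the highest mean share of short counts, the 5 called with the largest change each way, and the 3 with the smallest p in each genotype test. Clonotypes named are the 8 with the highest mean share, the highest of each J segment and of each length under 24 nt found in at least 5 samples, and any called.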

Additional observations from a re-analysis of the deposited data

Results flagged for a closer look

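In 5 of the 64 groups of 5 samples compared for single values that stand apart (gap to the nearest sample over the group's range above 0.71, Dixon's 95% value), 1 sample did so, and chance flags about 1 group in 20. Of Igkj4 in-frame counts, 21.6% were short in WT replicate 4, against 10.2 to 13.1% in the other WT samples. Igkv8-21 held 21.7% of short counts in rsCBE replicate 3, against 10.4 to 12.7% in the other rsCBE samples. Igkv4-69 held 1.96% in the same sample, against 1.80 to 1.84%, a narrow range. The leading Igkv8-27 clonotype with Igkj5 held 2.92% of short counts in WT replicate 4, against 4.96 to 5.74%. The Igkv19-93 clonotype with Igkj2 held 3.53% in rsCBE replicate 1, against 1.66 to 1.99%. The 64 groups did not take in every value given above. Outside them, WT replicate 4 stood apart in Igkj3 (1.59% of short counts) and in the short percentage of Igkv19-93 (79.4%). So did rsCBE replicate 4 in the short percentage of Igkv8-21 (38.4%).

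The short-minus-longer difference in the share of counts with 0 added bases differed between genotypes. It was -1.82, -0.839, -1.56, -7.44 and 0.903 points in WT and 1.22, 0.916, 0.870, 4.12 and -0.540 in rsCBE. The means were 3.47 points apart (exact permutation test, p = 0.0238), and 2.15 points apart without WT replicate 4 (exact p = 0.0556). It also did not pass without rsCBE replicate 1, 2 or 4 (exact p = 0.0556, 0.0556 and 0.0794). Within replicate pairs it did not pass either (exact p = 0.125). The difference was 2.40 points in batch 1 and 4.18 in batch 2, and the groups overlapped. WT replicate 4 was the shallowest sample, and the part of depth in these values was not tested.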

How the results depend on the processing

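Differences are rsCBE minus WT in percentage points unless stated, and causes were not tested. With 1 sample left out, the short share of in-frame counts differed by 0.00527 to 1.26, and it changed sign in batch 2 alone (-0.384), at no more than 21 nt (-0.0645) and as a share of all counts (-0.435). With each clonotype counted once it was 2.96. No alternative took it past the threshold. The share of short counts with 0 added bases differed by 1.56 to 3.47 with 1 sample left out, and no longer passed without rsCBE replicate 1, 3 or 4 (exact p = 0.0714 each). It also failed within replicate pairs (2.87), in batch 1 (1.38) or batch 2 (3.87) alone and from part a alone (2.75). Between genotypes, a batch alone cannot reach the threshold. The difference in distinct clonotypes (30.1) passed when genotypes were permuted inside batches.

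Of the 5 J segments, 3 were called in short counts between genotypes, 1 to 4 with 1 sample left out, and 0 with the replicate block or in either batch alone. Within each J segment 0 short shares were called, and 0 to 1 with 1 sample left out. For short against longer counts, where CDR3 length enters the contrast and nothing is read from the calls, 5 J segments were called, and 0 in batch 1, batch 2, WT or rsCBE alone, where fewer samples enter the test. V segments called by class numbered 39, 78 without the filter and 18 with each clonotype counted once. Single clonotypes called numbered 0, 2 with DESeq2 and 1 without the filter, a longer one. With each clonotype counted once, 1 of the 3 length classes was called (21 nt, 1.51).

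Short minus longer, the share with 0 added bases differed by -0.921 to 0.363 with 1 sample left out, 19.2 with each clonotype counted once, 2.62 without Igkv8-27, 0.535 without the 3 leading V segments and 1.32 in rsCBE alone.

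Other values also changed sign. The 21-nt class differed by -0.400 to 0.186 with 1 sample left out, 0.436 in batch 1 and 0.0701 without the 3 leading V segments, where lengths of at most 18 nt differed by -0.00198. Igkj3 in short counts differed by -0.274 to 0.124 with 1 sample left out and 0.0858 in batch 1. The short share within Igkj1 differed by -0.481 to 0.998 with 1 sample left out, -0.125 without clonotypes of 1 count and -0.530 without the 3 leading V segments. Within Igkj2 it differed by -1.18 to 0.0387 with 1 sample left out, 1.09 in batch 1, 2.13 with each clonotype counted once and 0.203 without Igkv8-27. Within Igkj4 it was 0.155 in batch 1 and 2.57 with each clonotype counted once. By class, Igkv1-135 had a log2 difference of 0.15 with each clonotype counted once, and Igkv8-24 of -0.12 to 0.22 with 1 sample left out and -0.33 in WT alone. The replicate block ended the calls of Igkj1, Igkj2 and Igkj5 and of the share of short counts with 0 added bases. It also ended the call of the difference between genotypes in short minus longer shares with 0 added bases (3.47, exact p = 0.125), and changed no call beyond these. Depth limits single clonotypes: 3 counts were 0.11 to 0.796% of a sample's short counts.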
